A study of Mus musculus with 16 samples.

Results

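The genes described here encode 10 subunits of the Sin3, NuRD and CoREST corepressor complexes, in which the histone deacetylase Hdac1 works: Sin3a, Sin3b, Rcor1, Mta1, Mta2, Mta3, Chd4, Mbd3, Rbbp4 and Gatad2a. They were taken by name from the RefSeq annotation of GRCm38.p6, where all 10 matched, and they stand among 21887 protein-coding genes on chromosomes 1 to 19, X and Y. The study mapped H3K27ac, a histone acetylation typical of active enhancers and promoters, and H3K4me3, a histone methylation typical of promoters, in late 2-cell mouse embryos at 36 h after fertilization. The assay was ultra-low-input native ChIP-seq, in which uncrosslinked chromatin is cut with micrococcal nuclease and the antibody-bound fragments are sequenced. Control zygotes had received H2O and mutant zygotes an mRNA encoding mutant Hdac1; the labels name no strain, and they do not say how Hdac1 was altered or how many embryos made up a library. The 16 libraries formed 8 groups of 2, an immunoprecipitation and an input group for each mark and condition. Since the controls received no mRNA, the mutant protein and the injection of mRNA as such cannot be told apart.

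The data were 4 lists of peak positions, 1 for each immunoprecipitation group, so both libraries of a group share a list and no value below has a replicate error. No test of the conditions was possible and no p-values are given. The lists held 77349 control and 122487 mutant H3K27ac peaks, and 86798 control and 85780 mutant H3K4me3 peaks. They hold no heights or scores, and the sequencing depth is unknown. The mutant H3K27ac list was the longer one, and the part of list length in the differences below was not tested beyond lists cut to equal size. A gene was called marked when a peak overlapped a window of 2 kb on either side of 1 of its ends by at least 1 bp. Covered bases are the bases of these windows, up to 8000 bp a gene, that lie inside peaks. Every number for a gene is therefore an extent of called signal, and none is an expression level or a signal strength.

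Hdac1 and the closely related Hdac2 remove acetyl groups from histone tails and act in the cell mostly as parts of large complexes. In the Sin3 complex a Sin3 protein is the scaffold on which the deacetylases and their partners assemble. NuRD joins deacetylation to the ATP-dependent nucleosome remodeller Chd4, and CoREST joins it to Kdm1a, which removes methyl groups from mono- and dimethylated H3K4. These complexes are known chiefly for silencing and tuning promoters and enhancers, and several of their subunits are needed for early mouse development.

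The sequence before the start site is shown for the members whose H3K27ac cover at gene ends differed at least 2-fold between the lists (Rcor1, Chd4, Sin3b and Mbd3), and for Mta2, which kept H3K27ac over its start in both lists. Each run is the 250 bases before the gene's first listed start in the RefSeq promoter table of GRCm38.p6, written 5′ to 3′ on the gene's own strand, and capitals mark matches to the motifs named after the sequences. They lie at chr12:111039117-111039366 (Rcor1, plus strand), chr6:125095731-125095980 (Chd4, plus strand), chr8:72723020-72723269 (Sin3b, plus strand), chr10:80399532-80399781 (Mbd3, minus strand) and chr19:8941670-8941919 (Mta2, plus strand).
Rcor1: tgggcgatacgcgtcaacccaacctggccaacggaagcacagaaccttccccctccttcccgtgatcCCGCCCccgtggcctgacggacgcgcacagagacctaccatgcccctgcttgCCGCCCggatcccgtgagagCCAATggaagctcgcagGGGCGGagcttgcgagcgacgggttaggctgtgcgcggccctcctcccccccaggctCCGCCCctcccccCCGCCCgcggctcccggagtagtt
Chd4: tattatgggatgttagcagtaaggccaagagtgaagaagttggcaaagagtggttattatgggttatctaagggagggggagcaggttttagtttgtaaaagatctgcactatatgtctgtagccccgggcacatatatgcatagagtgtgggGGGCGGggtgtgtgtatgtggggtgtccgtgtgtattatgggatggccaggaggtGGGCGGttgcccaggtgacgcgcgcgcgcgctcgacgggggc
Sin3b: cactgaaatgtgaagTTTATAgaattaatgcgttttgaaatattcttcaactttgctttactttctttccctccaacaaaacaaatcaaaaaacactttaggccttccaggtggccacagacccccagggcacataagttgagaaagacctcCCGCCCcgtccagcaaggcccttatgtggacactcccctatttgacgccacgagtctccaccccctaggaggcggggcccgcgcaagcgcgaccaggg
Mbd3: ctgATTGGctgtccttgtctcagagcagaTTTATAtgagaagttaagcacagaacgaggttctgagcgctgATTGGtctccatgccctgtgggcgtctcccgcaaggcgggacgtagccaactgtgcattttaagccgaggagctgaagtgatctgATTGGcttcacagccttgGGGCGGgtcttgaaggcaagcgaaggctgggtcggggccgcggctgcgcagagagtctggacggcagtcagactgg
Mta2: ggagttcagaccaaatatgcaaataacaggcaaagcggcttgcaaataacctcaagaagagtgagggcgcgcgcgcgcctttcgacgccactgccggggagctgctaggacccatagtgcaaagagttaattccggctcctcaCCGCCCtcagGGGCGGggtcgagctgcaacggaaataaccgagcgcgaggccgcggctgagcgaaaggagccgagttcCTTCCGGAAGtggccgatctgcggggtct

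The motifs searched on both strands were the GC box bound by Sp factors, spelled GGGCGG, the box bound by NF-Y, spelled CCAAT, the core bound by ETS factors, spelled CCGGAAG, an element bound by YY1, spelled ATGGCGGC, and the TATA box, spelled TATAAA. The table listed 12 start sites for 9 members; Mta3 had no entry. All 12 windows of the members held a GC box, against 42.6% of the 21263 windows of the same length before listed starts of protein-coding genes. CCAAT was found in 7 of 12 windows, against 35.4% of all windows, and CCGGAAG in 2, against 8.98%. TATAAA was found in 2, at Sin3b and Mbd3, against 11.6%, and ATGGCGGC in 0, against 1.22%. In Mta2 the ETS-type match is counted on both strands, since its copies on the 2 strands overlap. The member windows held a median of 19.5 CG dinucleotides, against 10 over all windows. In the windows shown, Rcor1 had 25, Mta2 24, Mbd3 14, Chd4 12 and Sin3b 10, and the window before the second listed start of Chd4 had 23.

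H3K4me3 lay at an end of all 10 member genes in both conditions, whereas H3K27ac lay at 9 in control and 8 in mutant embryos. Chd4 and Rcor1 had H3K27ac at their ends in control embryos and none in mutant embryos. Sin3b, the only member without it in control embryos, had a short peak in mutant embryos, and 34.6% of all genes not marked in controls were marked in mutants. Over all protein-coding genes 54.8% were marked by H3K27ac in control and 58.0% in mutant embryos, and 74.7% and 72.9% by H3K4me3. The members were thus marked more often than the average gene, by both modifications and in both lists. The 2 members without mutant H3K27ac among the 9 marked in control embryos, or 22.2%, compare with 22.7% over all control-marked genes, so the members lost H3K27ac about as often as other genes. No member lost H3K4me3, against 8.94% of all genes marked by it in control embryos.

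The amount of covered sequence at gene ends went in both directions. H3K27ac cover was lower in mutant embryos at 5 members, higher at 4 and equal at Rbbp4. Over all genes with any H3K27ac at their ends, 52.6% were lower and 45.5% higher. H3K4me3 cover was lower at 6 members, higher at Sin3a, Sin3b and Mta1, and equal at Mta3, against 41.0% lower and 52.3% higher over all genes. A 2-fold difference in H3K27ac was reached by Chd4 and Rcor1, which were lower, and by Sin3b and Mbd3, which were higher. The background shares were 32.2% of genes at least 2-fold lower and 31.2% at least 2-fold higher. For H3K4me3 no member differed 2-fold in either direction, against 13.3% and 13.2% of all genes. The list as a whole therefore gave no surplus of 2-fold differences over the background.

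**Figure D1:**
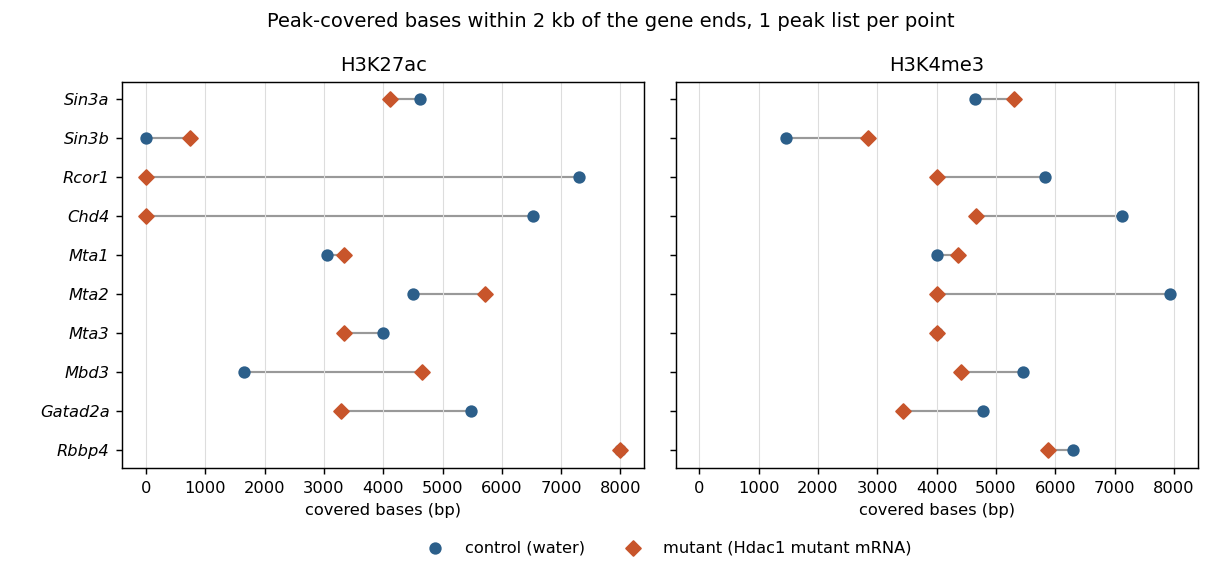
Bases within 2 kb of the gene ends (horizontal axis, bp) that lie inside peaks, for each member gene (rows), with H3K27ac on the left and H3K4me3 on the right; circles are the control list and diamonds the mutant list, 1 list per point and no error bars. Rcor1 and Chd4 go to 0 for H3K27ac while their H3K4me3 stays at or above 4000 bp; where only a diamond is seen (Rbbp4 for H3K27ac, Mta3 for H3K4me3), both values are equal.

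Among the scaffold proteins, Sin3a and Rcor1 carried wide H3K27ac peaks in control embryos and Sin3b almost none. Sin3a (chromosome 9, 57071991 to 57128368) had 4618 bp of its end windows covered by H3K27ac in controls, and 4112 bp in mutants. Beyond the end windows the difference was larger, with 22233 bp of the gene body covered in controls, and 6904 bp in mutants, a ratio of 0.311. A control peak of 25266 bp ran from the promoter into the gene, and only 7.65% of it was covered in the mutant list. The mutant peak at the start, of 9807 bp, lay mostly upstream of the gene. H3K4me3 at the Sin3a start was similar, with peaks of 9700 bp in the control list and 11124 bp in the mutant list, the control peak lying wholly inside the mutant one.

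Sin3b (chromosome 8, 72723270 to 72758203), the alternative scaffold of the Sin3 complex, had the least H3K4me3 of the members and almost no H3K27ac in control embryos. Its end windows held 0 bp of H3K27ac in controls, and 738 bp in mutants, the latter a single peak just inside the gene. H3K4me3 at its start measured 1467 bp (control) and 2893 bp (mutant), the narrowest widest peak of any member in both lists. In the control list the nearest H3K27ac peak lay 26832 bp from the Sin3b start, inside the gene and only 220 bp wide. The gain of H3K27ac depended on the window: with windows of 5 kb, which reach a peak beyond the far end of the gene, Sin3b had 1691 bp in control embryos and 738 bp in mutants. In the wider 50% of each list no H3K27ac remained at its ends in either condition.

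Rcor1 (chromosome 12, 111039367 to 111115902), which ties Hdac1 and Hdac2 to the demethylase Kdm1a in CoREST, showed the opposite pattern at its ends. H3K27ac covered 7294 bp of its end windows in control embryos and 0 bp in mutant embryos. The control list had a peak of 17435 bp over the start and another of 10547 bp over the far end. In the mutant list a peak of 10347 bp lay wholly within the extent of the control start peak, but began 3135 bp inside the gene. Over the body the mark covered 30996 bp in mutant embryos, against 37595 bp in the controls, partly at other positions: over the gene with flanks, 47.9% of the control bases lay in the mutant list too. H3K4me3 covered all 4000 bp around the Rcor1 start in both lists, with peaks of 16504 and 18060 bp. At the far end an H3K4me3 peak of 2757 bp was present in the control list alone. Windows of 5 kb held 1865 bp of mutant H3K27ac, all of it on the start side, against 19294 bp in control embryos.

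Chd4 (chromosome 6, 125095980 to 125130591), the remodelling ATPase of NuRD, had the lowest mutant-to-control ratio of H3K27ac among the members, both over the gene and, with Rcor1, at its ends. Its end windows held 6533 bp in the control list and 0 bp in the mutant list. Over the gene with 2 kb on each side the covered bases were 33055 in control and 4436 in mutant, a ratio of 0.134. In control embryos 4 H3K27ac peaks covered 85.6% of that stretch, and the widest, of 27118 bp, ran from the downstream part of the gene across its far end into Nop2. In mutant embryos 3 peaks of 678 to 1966 bp remained, all in the body. H3K4me3 was also lower over the gene, with 20018 bp (control) and 8372 bp (mutant), a ratio of 0.418. At the start, however, the H3K4me3 peaks measured 4349 bp in control embryos and 2971 bp in mutants, and the mutant peak lay wholly inside the control one. With windows of 5 kb the H3K27ac values at the Chd4 ends were 15558 and 2773 bp, again at least 2-fold lower.

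**Figure D2:**
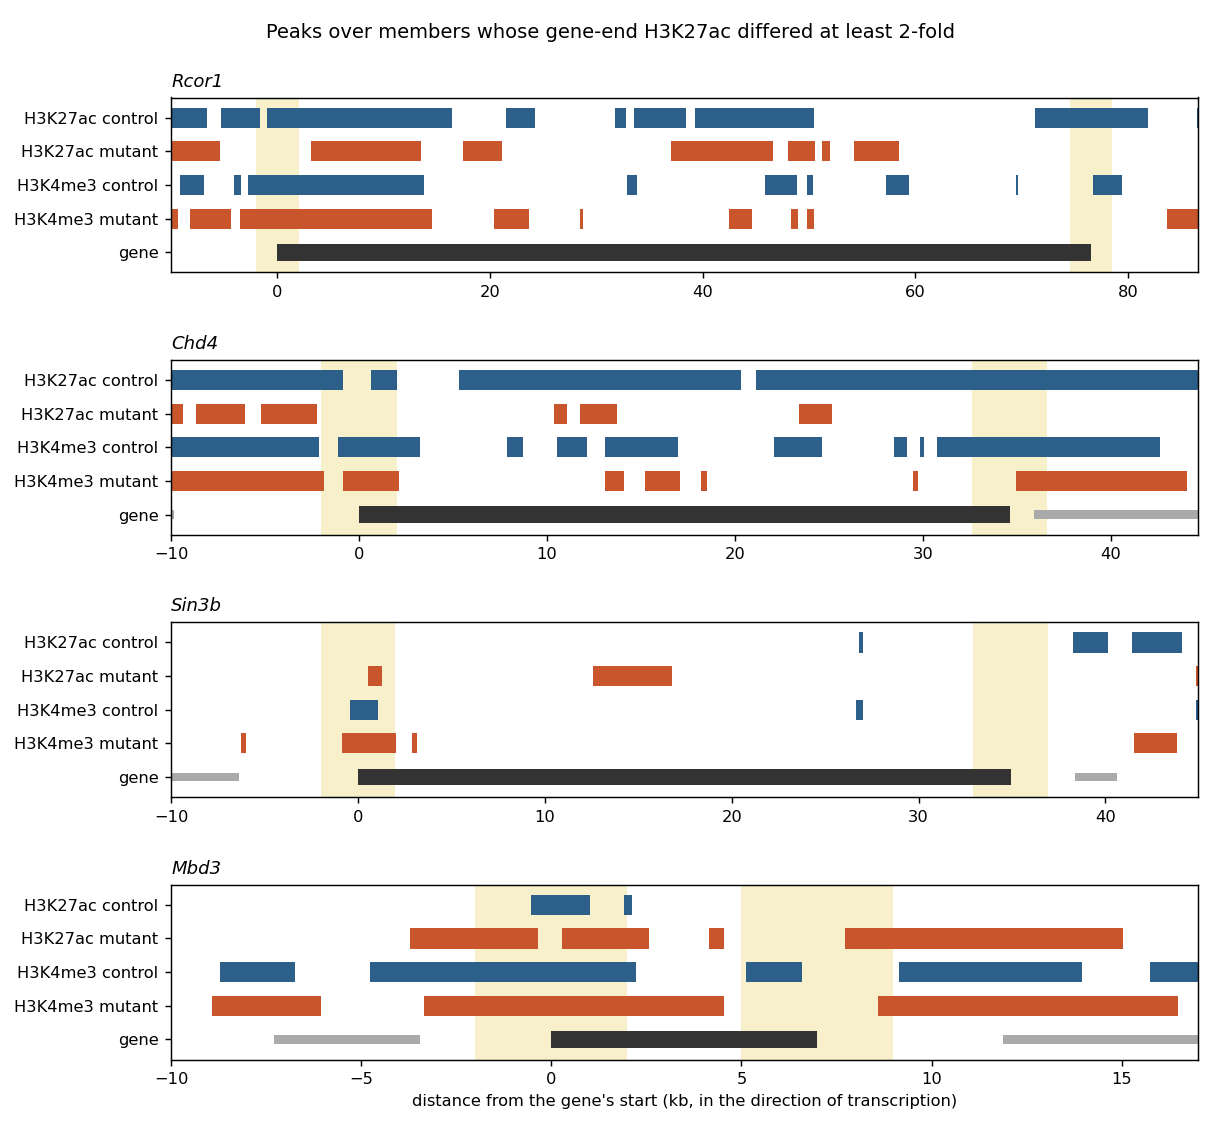
Peaks (bars) of the 4 lists over Rcor1, Chd4, Sin3b and Mbd3 and 10 kb on each side, by distance from the gene's start in kb; blue is control and orange mutant, the dark bar is the gene, thin grey bars are other protein-coding genes, and yellow bands are the 2 kb windows around the gene ends. At Rcor1 and Chd4 no mutant H3K27ac bar enters a yellow band, whereas mutant H3K4me3 bars cover both starts.

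The 3 Mta genes encode the NuRD subunits that bind Hdac1 and Hdac2 directly, and they differed among themselves. Mta1 (chromosome 12, 113098248 to 113137206) had 3056 bp of H3K27ac at its ends in controls, and 3333 bp in mutants, but 16115 and 5722 bp in its body. The mutant list had a peak of 14806 bp upstream that stopped just short of the start and a second of 5765 bp that began inside the gene. Mta2 (chromosome 19, 8941920 to 8952300) carried H3K27ac over most of its length in both conditions, at 75.7% of the gene with flanks in the control list and 83.1% in the mutant list. Its end windows held 4501 bp in the control list and 5724 bp in the mutant list. H3K4me3 at the Mta2 ends was 7929 bp (control) and 4000 bp (mutant), a ratio of 0.504, just inside the 2-fold limit. That difference came from the far end, where a control H3K4me3 peak of 12869 bp shared with Tut1 had no mutant counterpart, while the start kept 4000 bp in both lists.

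Mta3 (chromosome 17, 83706163 to 83823715) had the widest H3K27ac peak of the members in control embryos. It measured 93516 bp, ranked 3 by width among the 77349 peaks of the list, and ran from 83638964 to 83732479, that is, from far outside the gene into its lower-coordinate part. The same stretch held 13 separate mutant peaks, which covered 56.8% of it. The covered bases at the Mta3 ends differed little, with 4000 bp in control embryos and 3333 bp in mutants. Over the gene with its flanks they were 66875 and 38035 bp, a ratio of 0.569. H3K4me3 over the same stretch was 50707 bp in the control list and 24944 bp in the mutant list, while the peak at the lower-coordinate end was wider in mutant embryos, at 9294 and 14023 bp.

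Mbd3 (chromosome 10, 80392539 to 80399531), the methyl-CpG-binding-domain subunit that sets NuRD apart from the related Mbd2 form, had little H3K27ac in control embryos, 1648 bp at its ends, and 4646 bp in mutant embryos. This ratio of 2.82 was made up of wider peaks on both sides of the start and a peak of 7305 bp over Mex3d that reaches the window of the far end. Within windows of 1 kb the values were nearly equal, at 1543 and 1646 bp. H3K4me3 at the Mbd3 start covered 4000 bp in both lists. Gatad2a (chromosome 8, 69907069 to 69996402), which links Mbd3 to Chd4 within the complex, had wide peaks of both marks at its start. The widest H3K27ac peak touching its end windows measured 31095 bp in control embryos and 26431 bp in mutants, the latter ranked 37 by width among 122487. The mutant peak of 26431 bp lay upstream, over Mau2, and a peak of 4406 bp covered the start itself. H3K4me3 in the Gatad2a body was higher in mutant embryos, with 49616 bp (control) and 61378 bp (mutant), including a mutant peak of 36655 bp. At the Gatad2a ends it was lower, with 4779 and 3433 bp covered, and its widest peak there measured 32402 bp in controls, and 11802 bp in mutants.

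Rbbp4 (chromosome 4, 129307100 to 129335370), a histone-binding WD-repeat protein shared by Sin3 and NuRD, was the member with the largest share of H3K27ac cover over the gene with flanks in both lists, and of H3K4me3 cover in the control list. A single control H3K27ac peak of 49612 bp, ranked 76 by width, spanned the whole gene together with parts of Sync and Zbtb8os. In mutant embryos 5 peaks of 3110 to 9324 bp took its place within the gene and its flanks and still covered 28070 of the 32271 bp. The end windows were filled in both lists, at 8000 bp. H3K4me3 covered 30133 bp of the gene with flanks in controls, and 21637 bp in mutants, and the peak over the start measured 29545 and 27808 bp.

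**Figure D3:**
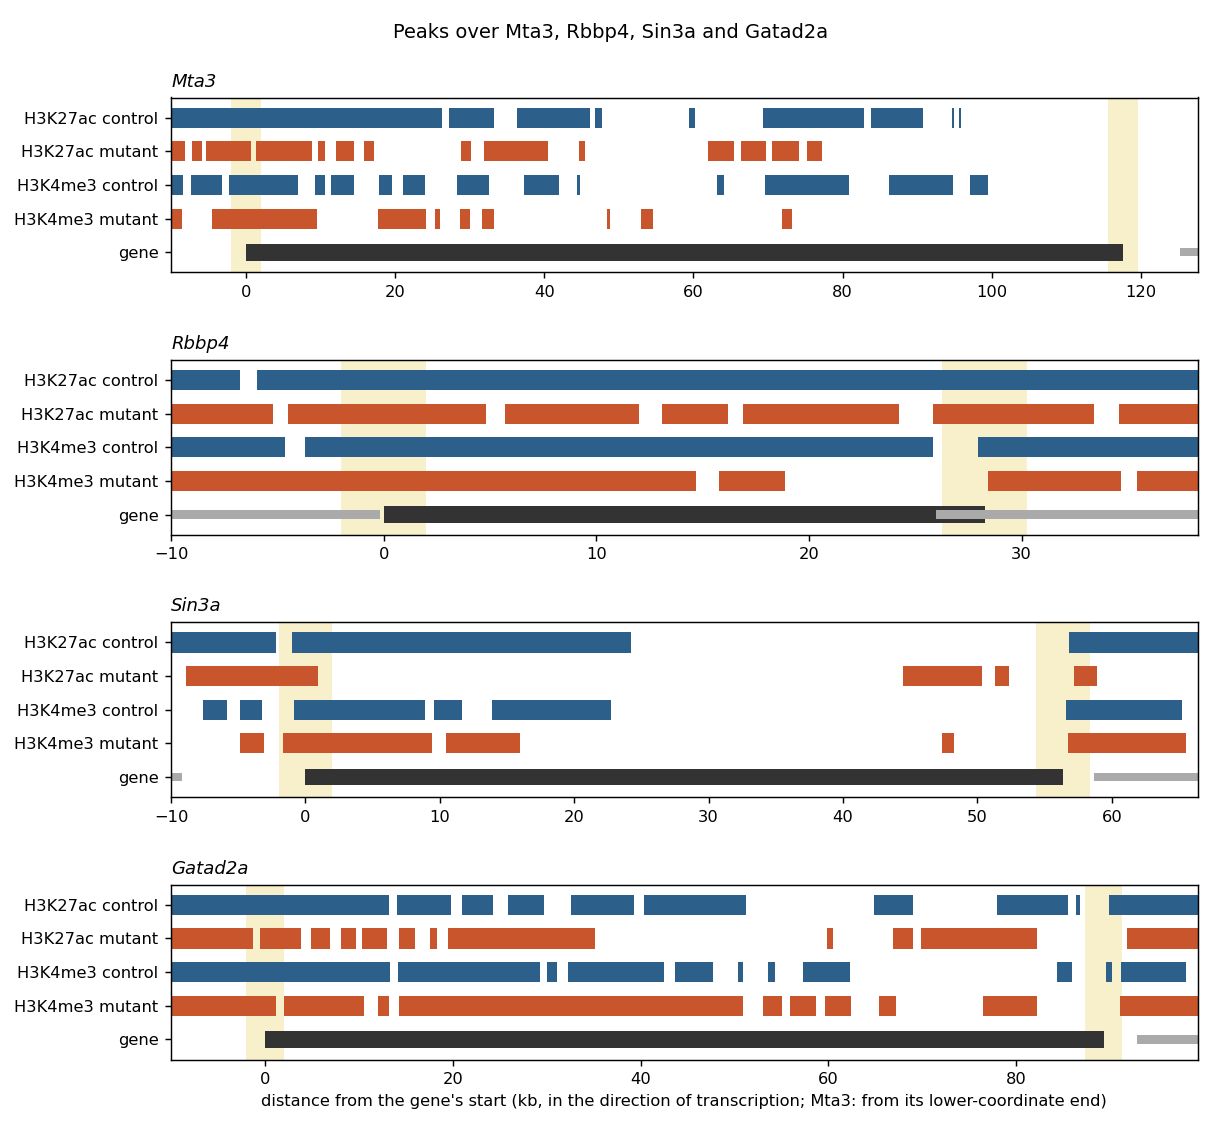
Peaks (bars) of the 4 lists over Mta3, Rbbp4, Sin3a and Gatad2a and 10 kb on each side, by distance from the gene's start in kb (Mta3 from its lower-coordinate end); colours, gene bars and yellow windows as for the map of Rcor1 and Chd4, and bars that run past the plotted range are clipped. The single control H3K27ac bar over Rbbp4 is replaced by 5 mutant bars within the gene and its flanks, and the wide bar at the left of Mta3 by several shorter ones.

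Several wide control H3K27ac domains over the members were matched by groups of narrower mutant peaks. H3K27ac lay at the ends of 7 members in both lists, and its widest peak there was narrower in mutant embryos at Sin3a, Mta2, Mta3, Gatad2a and Rbbp4 and wider at Mta1 and Mbd3. The share over all genes with a peak in both lists was 67.2%, so this count of 5 of 7 is near the background. The ratio of widths ranged from 0.0797 at Mta3 to 4.7 at Mbd3. The starting widths did stand out: the median over the 9 members marked in control embryos was 25266 bp, against 7608 bp over all 12004 marked genes. In mutant embryos these medians were 9239 bp over 8 members and 4180 bp over 12696 genes. For H3K4me3 the widest peak was narrower at 4 of 10 members, against 37.4% of genes. Its median width over the members was 13017 bp in control embryos and 11463 bp in mutants, against 5281 and 7033 bp over all marked genes.

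**Figure D4:**
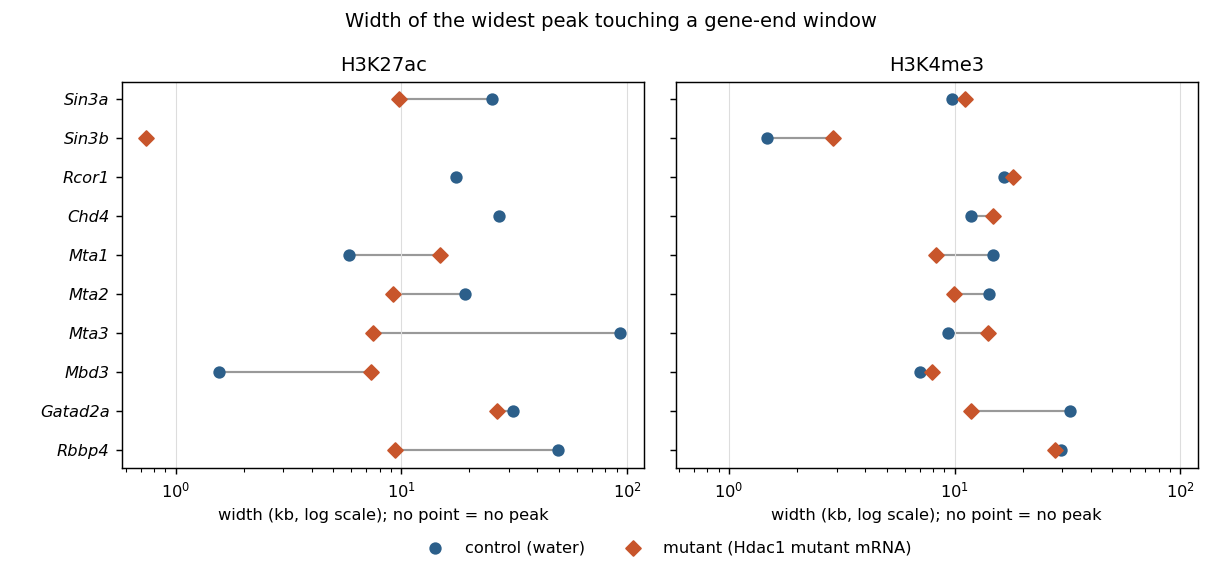
Width of the widest peak touching a gene-end window (horizontal axis, kb on a log scale) for each member, with H3K27ac on the left and H3K4me3 on the right; circles are control and diamonds mutant, 1 list per point, and a missing point means no peak. The H3K27ac points of Mta3 and Rbbp4 lie farthest apart among the members that are lower in mutant, at 93516 against 7451 bp and 49612 against 9324 bp, while the 10 pairs of H3K4me3 points differ by less than 3-fold.

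Single peaks were then followed from 1 list to the other. Of 43 control H3K27ac peaks that touch a member or its 2 kb flanks, 13 overlapped 2 or more mutant peaks, 15 overlapped 1 and 15 overlapped none. Of all control H3K27ac peaks, 11.4% overlapped 2 or more and 60.9% none, against 30.2% and 34.9% of the members' peaks, which were wider, with a median of 5999 bp against 1177 bp. Of the 53 mutant H3K27ac peaks there, 8 overlapped 2 or more control peaks, 34 overlapped 1 and 11 none, that is 15.1% with 2 or more and 20.8% with none, against 3.56% and 67.8% of the whole list. Peaks wider than 10 kb made up 14 of the 43 control and 5 of the 53 mutant H3K27ac peaks, or 32.6% and 9.43%. Over the whole lists these shares were 7.79% and 2.16%, a reduction of like proportion. For H3K4me3 they made up 11 of 53 control and 7 of 48 mutant peaks, or 20.8% and 14.6%, whereas the whole lists went the other way, from 4.91% to 6.54%. After joining peaks separated by under 1 kb in all lists, the widest H3K27ac peak was still narrower in mutant embryos at the same 5 members, but at several of them by much less. At Gatad2a the widths were then 42537 and 41829 bp. At Sin3a they were 25266 and 23704 bp, but at different places, since the control peak lay mostly in the gene and the joined mutant peak mostly upstream; cover over the gene with flanks was still 26851 and 11959 bp. At Rbbp4 they were 59432 and 26825 bp, at Mta3 100434 and 33238 bp, and at Mta2 106178 and 17920 bp.

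At the start sites themselves, H3K4me3 lay over every listed member start in both lists and H3K27ac was not. All 12 listed starts of the members lay inside an H3K4me3 peak in both lists, against 66.1% of all 21263 starts in control and 62.5% in mutant embryos. Inside an H3K27ac peak lay 9 of the 12 in the control list and 5 in the mutant list, against 35.2% and 28.0% of all starts. The 5 were the upstream start of Sin3a, the starts of Mta2 and Rbbp4 and both starts of Gatad2a. At Mta1 and Mbd3 the mutant list had H3K27ac on both sides of the start, with the nearest peak edge at 128 and 284 bp. The second start of Sin3a, 3486 bp from the nearest mutant peak, and the Rcor1 start, 3135 bp from it, had no mutant H3K27ac within 2 kb. Both Chd4 starts lay between peaks already in control embryos, 609 and 427 bp from the nearest, and 2229 and 2411 bp from it in mutant embryos.

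Over whole genes, most members had less H3K27ac in mutant embryos and less of it together with H3K4me3. Counted over each gene with 2 kb on each side, H3K27ac was lower at 7 members, against 52.1% of the genes with any in either list, and higher at Sin3b, Mbd3 and Mta2. It was at least 2-fold lower at Chd4, Sin3a and Mta1, against 26.4% of genes, and at least 2-fold higher at Sin3b and Mbd3, against 29.4%. The median ratio of mutant to control was 0.722 over the 10 members and 0.826 over the 15221 genes with control H3K27ac. In sum the members held 295276 bp of H3K27ac in controls, and 188859 bp in mutants, and all genes 168192827 and 150333523 bp. Of this difference, 28840 bp came from Mta3 and 28619 bp from Chd4.

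H3K4me3 over the same stretches was lower at 6 members, against 42.8% of genes, with a median ratio of 0.912 against 1.05 over all genes. It was at least 2-fold lower at Chd4 and Mta3, against 13.7% of genes, and at least 2-fold higher at 0 members, against 16.9%. Bodies beyond the end windows gave similar counts: H3K27ac was lower at 8 members, against 50.7% of genes, and at least 2-fold lower at 3, against 26.9%, and H3K4me3 was lower at 5, against 40.7%. Over the genes with flanks, H3K4me3 at the members summed to 230621 bp in the control list and 195867 bp in the mutant list, whereas over all genes the sums were higher in the mutant list, at 162543673 and 172285379 bp. Of the control bases, a median of 70.4% per member lay in the mutant list too, close to the 69.9% over all genes. For H3K27ac this kept share was 45.3% over the members, with 0.0% at Sin3b, 11.7% at Sin3a and 13.4% at Chd4 at the low end and 87.0% at Rbbp4 at the high end, against 29.2% over all genes.

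**Figure D5:**
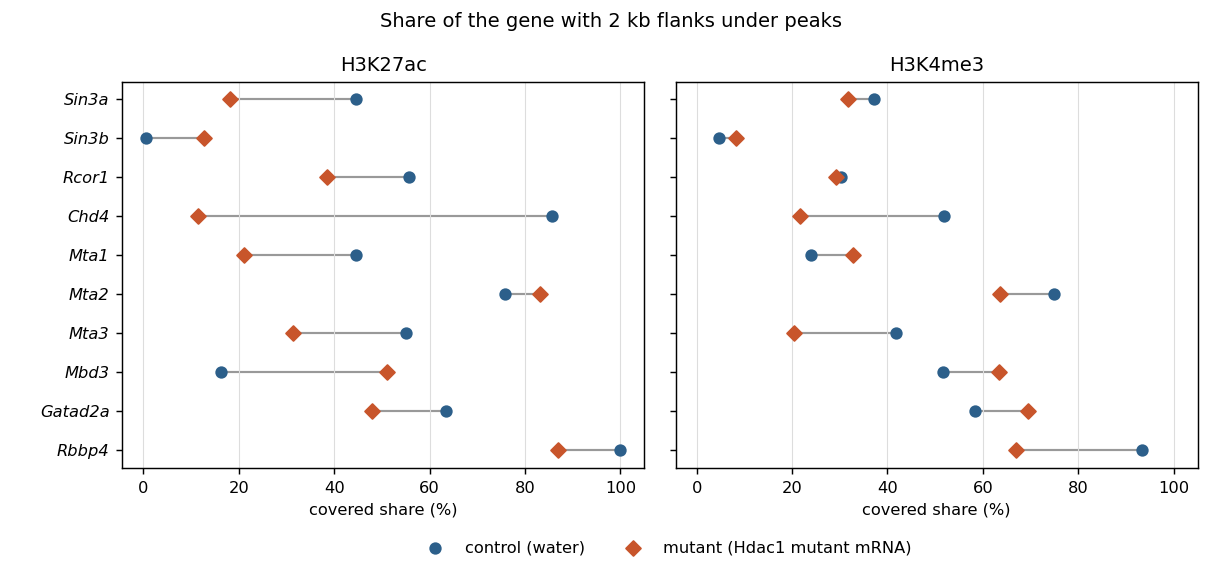
Share of each member gene with 2 kb flanks (horizontal axis, %) that lies under peaks, with H3K27ac on the left and H3K4me3 on the right; circles are the control list and diamonds the mutant list, 1 list per point. H3K27ac runs from 0.565% at Sin3b to the full length at Rbbp4 in control embryos, and Chd4 spans the longest line, from 85.6% to 11.5%.

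Both marks overlapped strongly at the members in control embryos. A median of 85.5% of their H3K4me3 bases also lay under H3K27ac. This was 79.1% over 35 other subunits of these and related Hdac1 complexes, and 40.6% over all genes. In mutant embryos these medians were 57.0%, 35.5% and 24.1%. The bases under both marks were fewer in mutant embryos at 7 members, against 59.2% of genes, and at least 2-fold fewer at Chd4, Sin3a and Mta3, against 37.9%. At Chd4 they numbered 17359 bp (control) and 622 bp (mutant), at Sin3a 22204 and 4746 bp, and at Mta3 43548 and 14017 bp. The median ratio was 0.746 over the members and 0.583 over all genes. Summed bases gave the opposite order, since the members held 195295 bp under both marks in controls, and 108265 bp in mutants, and all genes 92040609 and 64337566 bp. Cover by both marks was higher in mutant embryos at Sin3b (200 and 738 bp), Mbd3 (1776 and 4750 bp) and Mta2 (7276 and 7763 bp).

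Several end windows are shared with neighbouring genes, and peaks there cannot be assigned to 1 of them. The start of Mta2 lies 337 bp from Eml3, a microtubule-associated protein gene, and its far end 1531 bp from Tut1. Zbtb8os begins 161 bp from the start of Rbbp4, and Sync overlaps the far end of Rbbp4. The far end of Chd4 lies 1291 bp from Nop2, a nucleolar RNA methyltransferase gene, that of Sin3a 2306 bp from Man2c1, that of Sin3b 3455 bp from F2rl3, that of Mta1 3029 bp from Crip2 and that of Gatad2a 3550 bp from Tssk6. Uqcr11 lies 3465 bp from the start of Mbd3. Windows of Rcor1 and Mta3 overlapped those of no other protein-coding gene. With the start-site windows alone, H3K27ac was at least 2-fold lower at Chd4, Rcor1 and also Sin3a (7082 and 2851 bp over both starts) and at least 2-fold higher at Sin3b and Mbd3. H3K4me3 was then lower at 2 of 9 members, Chd4 and Gatad2a, in place of 6 of 10 at both ends.

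A further 35 genes, called the other subunits here, were all matched. They include Hdac1 and Hdac2, and also genes of other Hdac1-containing complexes, among them Mier1, Trerf1 and Mideas. The counts and medians for the 35 cover both kinds. H3K4me3 marked all 35 in both lists, as it did the 10 members. H3K27ac marked 30 in control and 29 in mutant embryos. The 4 genes with H3K27ac in control alone were Kdm1a, the demethylase of CoREST (3283 bp in control), Mier1 (5830 bp), Trerf1 (2550 bp) and Sap18 (2579 bp), a Sin3-associated protein gene. Of the 30 control-marked genes this is 13.3%, below the background of 22.7%. Chd5 (1421 bp in mutant embryos), Mbd2 (1199 bp) and Mideas (3502 bp) had it in mutant embryos alone, 3 of the 5 genes not marked in controls, or 60.0%, against 34.6% over all genes. Kdm1a and its partner Rcor1 thus both had no H3K27ac at their ends in mutant embryos, while H3K4me3 marked both. Over the whole Kdm1a gene with flanks, however, H3K27ac cover was higher in mutant embryos, at 17465 bp (control) and 25575 bp (mutant).

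Cover of H3K27ac at gene ends was lower in mutant embryos at 25 of the 33 other subunits with any, or 75.8%, against 52.6% of all genes, with a median ratio of 0.564 over the 30 with control cover, against 0.669 over all genes and 0.89 over the 9 members with control cover. At Hdac1 it was 5426 bp in control embryos and 2858 bp in mutants, and at Hdac2 5171 and 4211 bp. Over the gene with flanks, H3K27ac cover was 25566 and 5358 bp at Hdac1, and 8197 and 9234 bp at Hdac2. H3K4me3 at gene ends was lower at 12 and higher at 19 of the 35, with a median ratio of 1.09, against 0.871 over the members and 1.0 over all genes. These shares of 34.3% and 54.3% lie near the 41.0% and 52.3% of all genes. At Hdac2, H3K4me3 cover was 2301 bp in the control list and 5172 bp in the mutant list, at least 2-fold higher, and at Hdac1 7163 and 5739 bp. The members and the other subunits were not compared by a test.

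The genes most like the members were sought by the widths of the widest gene-end peaks in the 4 lists. The medians over the 7 members with a peak in every list were 25266 bp of H3K27ac in control, 9324 bp in mutant, and 14169 and 11124 bp of H3K4me3. Of 8503 other genes with a peak in every list, Coq5, a coenzyme Q synthesis gene, was nearest, with 27721, 9038, 14510 and 10319 bp in the same order. Serinc3 followed with 23403, 8474, 15201 and 10291 bp. Likeness was measured as the Euclidean distance of log10 widths, which was 0.055 for Coq5 and 0.070 for Serinc3, and it rests on 4 values per gene.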

How the data were processed

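The data were the 4 peak lists deposited by the authors, each with 3 columns (chromosome, start and end in bp, the deposited values being positions with no other unit). Per the submitters' processing notes, tools named are CASAVA, Trimmomatic, Bowtie2, SAMtools, Picard, MACS2 and deepTools, and builds mm10 and GRCm38; versions, settings and whether libraries were pooled are not given in the sources used here. The smallest peak widths (149 to 182 bp) and gaps (602 to 734 bp) differed between lists. From the lists, peaks on chromosomes 1 to 19, X and Y were kept; 0.0163% to 0.123% lay elsewhere. Positions were taken as BED coordinates and are given counted from 1. Number, covered bases and widest peak were computed with Python 3.11.15 and numpy 2.4.6 in windows of 2 kb around gene ends, in the body beyond them, and over the gene with 2 kb flanks; the interval code was tested on simulated data. Members and gene lists were chosen with earlier results of these data known. Genes named besides the members are the other subunits whose marked state differed, Hdac1 and Hdac2, neighbours with overlapping windows, and the 3 genes nearest in peak widths, of which 1 is not reported here; Mex3d and Mau2, which lie under named peaks, were chosen after their values were seen. Genes were called at 2-fold. An NRF1-type motif, listed among those to be searched, is not reported. Alternatives varied windows, peak joining, peak width and list length.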

Additional observations from a re-analysis of the deposited data

How the results depend on the processing

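No paired analysis was possible because the 2 libraries of a group are described by 1 common list, so no replicate could be left out either. Over 9 alternative settings, 113 recomputed values stayed within 1.5 times the value reported and 8 moved further; the cause was not tested. The number of members at least 2-fold higher in mutant for H3K27ac at gene ends was 1 in place of 2 with windows of 1 kb (Sin3b), with windows of 5 kb (Mbd3) and with the wider 50% of each list (Mbd3). For H3K4me3 it was 1 (Sin3b) in place of 0 with windows of 5 kb and with the wider 50% of each list. The number at least 2-fold lower for H3K4me3 was 1 (Mta2) in place of 0 with windows of 1 kb. Members with a narrower widest H3K27ac peak numbered 8 of 10 in place of 5 of 7 with windows of 5 kb, since Chd4, Rcor1 and Sin3b then had a peak in both lists. Members with fewer H3K4me3 bases numbered 2 in place of 6 with start-site windows alone. Chd4 and Rcor1 were at least 2-fold lower for H3K27ac under all settings run for gene ends, and held mutant H3K27ac at gene ends only with windows of 5 kb. The median ratio of H3K27ac over genes with flanks ranged from 0.69 to 0.74, that of H3K4me3 from 0.849 to 0.969 and that of both marks from 0.664 to 0.763. Depth is unknown and limits every statement that a peak is absent to the authors' calling.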
